A study of Mus musculus with 4 samples.

Results

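Fibro-adipogenic progenitors (FAPs) are the Pdgfra-expressing connective tissue cells between muscle fibres. Parenchymal FAPs without activation genes were taken here as FAP barcodes of the bulk libraries that were low for the adventitial genes Pi16 and Dpp4 and for the activation genes Tnc, Adam12 and Col8a1. They numbered 226 of 993 FAP barcodes in the 2 bulk libraries, which held 2356 kept barcodes of 5674 in the whole series. Of these, 147 came from the vehicle library and 79 from the LNP-CRISPR library. Barcodes needed 200 or more genes detected, and no more than 20% of their UMIs, each 1 counted transcript molecule, could be mitochondrial. It was called a FAP with at least 1 Pdgfra UMI, at least 100 UMIs of Col1a1, Col1a2, Col3a1 and Dcn together, no UMI of the leukocyte gene Ptprc and at most 2 UMIs of the tenocyte gene Tnmd. Parenchymal FAPs then had fewer than 5 UMIs of Pi16 and Dpp4 together, and fewer than 2 UMIs of Tnc, Adam12 and Col8a1 per 10000 UMIs. All other FAPs served for comparison. The 362 Pi16/Dpp4 FAPs were at or above the first limit, and the 405 Tnc/Adam12/Col8a1 FAPs below the first and at or above the second. Of the Pi16/Dpp4 FAPs, 141 of 231 in vehicle and 92 of 131 in LNP were also at or above the second limit. That comparison group was therefore not free of activation genes.

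The cells came from skeletal muscle of a mouse model of Duchenne muscular dystrophy (DMD), and both treatments carried that disease background. The vehicle group and the LNP-CRISPR group, given Cas9 in lipid nanoparticles as the labels name it, each had 1 bulk library and 1 library from a satellite cell isolation kit. The labels used here give no strain, age, sex, dose, route or time, and do not say how many mice stand behind a library. With 1 library per group there is no replicate check, no test was run, and the intervals below cover counting error only. A gene's level in a group is its summed UMIs over all nuclear-encoded UMIs of that group, scaled to a total of 1000000 (CPM). Ranges in brackets are exact 95% intervals, Poisson for levels, binomial for shares and conditional binomial for ratios.

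FAPs are the main source of collagen, fat and niche signals in muscle. Adventitial FAPs, marked by Pi16 and Dpp4, sit around vessels and are regarded as progenitors. Parenchymal FAPs lie next to the fibres, carry a basement membrane programme that includes Col15a1, and are recognised by Smoc2 and the chemokine Cxcl14. After injury and in dystrophic muscle, FAPs take up an activated state with Tnc, Adam12, Postn and fibrillar collagen genes, and they respond to tumour necrosis factor, interleukin 1 and interferon with chemokines and interleukin 6.

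Parenchymal FAPs made up 24.1% (20.8 to 27.7) of the 610 vehicle FAPs and 20.6% (16.7 to 25) of the 383 LNP FAPs, so the intervals overlapped. As a share of all kept barcodes they were 12.2% (10.4 to 14.2) of 1204 in vehicle and 6.86% (5.47 to 8.47) of 1152 in LNP. Those intervals did not overlap, but they cover counting error within 1 library each. The lower share in LNP was not particular to parenchymal FAPs. All FAPs together were 610 of the 1204 vehicle barcodes and 383 of the 1152 LNP barcodes. Pi16/Dpp4 FAPs were 19.2% and 11.4% of kept barcodes, and the share of Tnc/Adam12/Col8a1 FAPs was also lower in LNP. Whether treatment changed these shares was not tested. Parenchymal FAPs were the shallowest FAPs, with median totals of 21228 UMIs in vehicle and 22274 in LNP. The medians were 29840 and 30814 in Pi16/Dpp4 FAPs and 42302 and 38692 in Tnc/Adam12/Col8a1 FAPs. Pi16 and Dpp4 were limited by raw UMIs, which shallow cells pass more easily, and setting both limits per 10000 UMIs gave shares of 30% and 24.8%. After thinning every FAP to 5000 UMIs, 15.9% and 13.8% had no UMI of any of the 5 genes, a stricter rule by construction. Near the first limit, 12 vehicle and 7 LNP members held 4 UMIs of Pi16 and Dpp4, while 10 and 4 otherwise eligible FAPs held 5. Near the second limit, 20 and 11 members lay at 1.5 to 2 UMIs of the activation genes per 10000, and 17 and 12 FAPs at 2 to 2.5. No UMI of Tnc, Adam12 or Col8a1 was found in 67 vehicle and 35 LNP members, and 32 and 15 also had no UMI of Pi16 or Dpp4. The rule left low levels of its genes and not 0. Tnc was at 8.64 and 8.03 CPM, Adam12 at 32.6 and 22.8 CPM, Col8a1 at 26.9 and 41.4 CPM, Pi16 at 47.7 and 55.6 CPM and Dpp4 at 5.44 and 6.17 CPM, in vehicle and LNP. Pi16 had UMIs in 76 of 147 vehicle and 47 of 79 LNP members. Its levels in Tnc/Adam12/Col8a1 FAPs were lower, at 22.4 and 25.8 CPM, and in Pi16/Dpp4 FAPs 862 and 647 CPM. No barcode was shared between the bulk libraries.

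The 4 marker genes of the label were present in nearly all of these cells. Pdgfra, the receptor that defines FAPs and was part of the rule, stood at 815 CPM in vehicle and 772 CPM in LNP, against 448 to 520 CPM in the other FAPs. Cxcl14, a chemokine of resting parenchymal stroma, was at 2001 CPM in vehicle (129 of 147 cells) and 2740 CPM in LNP (71 of 79 cells), against 884 and 974 CPM in Pi16/Dpp4 FAPs and 1350 and 1320 CPM in Tnc/Adam12/Col8a1 FAPs. With each cell thinned to 5000 UMIs, Cxcl14 was detected in 84.5% and 87.8% of parenchymal FAPs, 56.7% and 60.3% of Pi16/Dpp4 FAPs and 76.0% and 70.8% of Tnc/Adam12/Col8a1 FAPs. Col15a1, a basement membrane collagen, was at 718 and 966 CPM in parenchymal FAPs and at 472 to 580 CPM in the others. Smoc2, a matricellular calcium-binding protein, gave the weakest separation. Its level was 1053 CPM (1017 to 1090) in vehicle parenchymal FAPs, beside 1001 CPM (982 to 1021) in vehicle Tnc/Adam12/Col8a1 FAPs, and the 2 intervals overlapped. In LNP the Smoc2 levels were 1363 CPM in parenchymal FAPs and 835 and 970 CPM in the others.

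**Figure D1:**
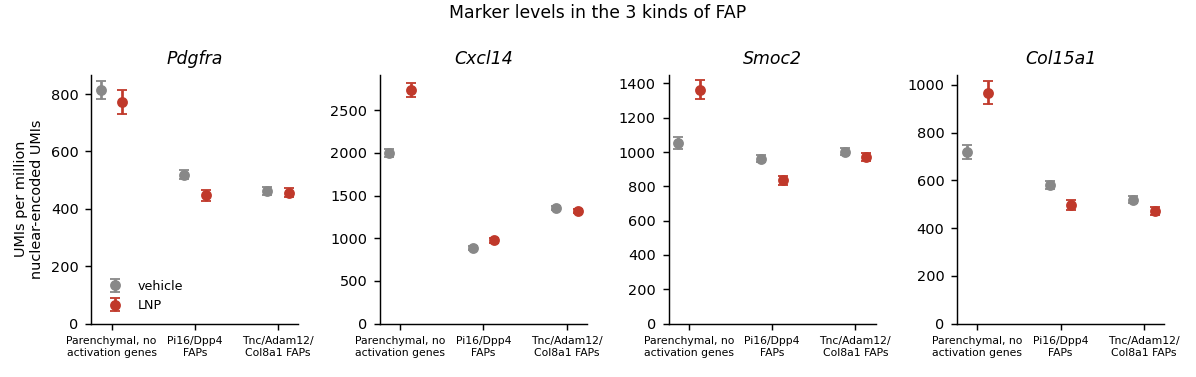
Levels of Pdgfra, Cxcl14, Smoc2 and Col15a1 (CPM, bars are exact Poisson 95% intervals) in parenchymal FAPs without activation genes, Pi16/Dpp4 FAPs and Tnc/Adam12/Col8a1 FAPs of each bulk library. Cxcl14 reaches 2001 and 2740 CPM in the parenchymal FAPs, above both other kinds in both libraries, whereas vehicle Smoc2 differs little between the 3 kinds.

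The words "without activation genes" hold for the 3 genes of the rule and not for the whole activated programme. Periostin (Postn), a matricellular protein of activated FAPs, was still at 1024 CPM in vehicle and 1062 CPM in LNP, with UMIs in 117 of 147 and 65 of 79 cells. After thinning, Postn was detected in 71.8% and 71.6% of parenchymal FAPs and in 86.5% to 93.6% of the other FAPs. The fibrillar collagen genes Col3a1 and Col1a1 were part of the FAP rule. Col3a1 (14621 and 15018 CPM) and Col1a1 (11286 and 11773 CPM) were among the most abundant transcripts, and their levels in the other FAPs were 14663 to 18320 CPM and 9718 to 12256 CPM. Other abundant transcripts were the actin-severing protein Gsn (11164 and 9542 CPM), the matrix protein Sparc (9284 and 8182 CPM), the calcification inhibitor Mgp (8231 and 7113 CPM) and the metallothioneins Mt1 and Mt2.

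Cell-to-cell spread within the group was wide. Cxcl14 ran from 0 to 12812 CPM in vehicle cells with a median of 1234, and from 0 to 10851 CPM in LNP cells with a median of 2019. The lipocalin Apod reached 46451 CPM in 1 vehicle cell against a median of 951. Clusterin (Clu), a secreted chaperone and complement inhibitor, was found in 64 of 147 and 22 of 79 cells, and the cytochrome P450 gene Cyp2f2 in 31 and 15. At these depths a cell without a UMI is not shown to lack the gene.

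The differences from the other FAPs are a description, since the rule split the cells on genes of the same programmes. Against Pi16/Dpp4 FAPs, parenchymal FAPs had higher Cyp2f2 (51.9 against 4.53 CPM in vehicle, 49.4 against 2.93 CPM in LNP), which is an 11.4-fold and a 16.9-fold ratio. The heparin-binding growth factor pleiotrophin (Ptn) was at 315 against 56.8 CPM and 310 against 49.9 CPM. Also higher in both libraries were Mylk, Cpxm2, Ndnf, Nos1ap, Tmem176a and Tmem176b, at 4.37 to 7.45 times the level. Lower were Serpinb2, a plasminogen activator inhibitor, at 4.48 against 334 CPM in vehicle, together with Dmkn, Cmah, Pdgfc and the mitotic genes Hmmr, Bub1, Cenpf and Plk1.

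Against Tnc/Adam12/Col8a1 FAPs, Clu was at 217 against 8.97 CPM in vehicle and at 112 against 3.24 CPM in LNP, a ratio of 24.2 and 34.5. The BMP-family ligand Gdf10 was at 230.1 against 36.7 CPM and 199 against 20.9 CPM. Haptoglobin (Hp), Olfml2a, Robo2 and the basement membrane chain Col4a4 were also higher, by 6.37 to 19.0 times, but 29 of 39 vehicle and 51 of 54 LNP UMIs of Hp lay in 1 cell each. The 8 lowest genes were all mitotic, among them Cenpf at 2.24 against 88.4 CPM in vehicle and 0 against 67.0 CPM in LNP. Of genes tested against Pi16/Dpp4 FAPs, 12.5% in vehicle and 12.7% in LNP were at least 1.5-fold higher and 9.48% and 17.2% at least 1.5-fold lower. Against Tnc/Adam12/Col8a1 FAPs these shares were 17.8% and 14.8% higher and 12.9% and 20.5% lower.

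By gene list, complement genes stood out from the background against Tnc/Adam12/Col8a1 FAPs. All 13 measured were higher in both libraries, with a median log2 ratio of 1.59 in vehicle and 1.45 in LNP beside 0.04 and -0.07 over all genes. Acute phase genes had medians of 0.92 and 1.24, basement membrane genes 0.36 and 0.62, adipogenic genes 0.64 and 0.59, and hypoxia and glycolysis genes -0.69 and -0.71. Against Pi16/Dpp4 FAPs the acute phase medians were 0.43 and 1.15, the complement medians 0.54 and 0.91, the adventitial list, which the rule selected against, -1.23 and -1.24, and all genes -0.00 and -0.07. Immediate early genes, such as Jun, Fos and Egr1, had medians of 0.50 to 0.62. Against either other kind, 22 of 25 lay higher in vehicle and 19 of 25 in LNP, and 10 to 14 were at least 1.5-fold higher. Over all genes, 5817 of 11652 in vehicle and 4717 of 10536 in LNP lay higher against Pi16/Dpp4 FAPs. Against Tnc/Adam12/Col8a1 FAPs these were 6279 of 11934 and 5058 of 11201. Cell cycle genes had medians of -1.32 and -2.03 against Pi16/Dpp4 FAPs, but at a matched depth of 5000 UMIs these became -0.27 and -0.13. The minimum of 20 UMIs per gene applied again after thinning, so the genes behind the 2 sets of medians need not be the same. Against Tnc/Adam12/Col8a1 FAPs the medians without thinning were -1.65 and -2.19. Mki67, a proliferation marker, had UMIs in 5 of 147 and 4 of 79 parenchymal FAPs. Thinned to 5000 UMIs, the Mki67 shares were 1.41% and 2.70%, against 5.63% and 8.40% in Pi16/Dpp4 FAPs and 13.5% and 11.1% in Tnc/Adam12/Col8a1 FAPs.

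Summed over all cells, markers of most other cell types were low, though single cells carried some of them. Tenocyte and mural markers were the exceptions and were found in many cells. The 9 T and NK cell markers summed to 1.92 CPM in vehicle and 3.70 CPM in LNP, with Cd3e, Cd3d, Cd3g and Nkg7 at 0 in both. Satellite cell markers summed to 8.64 and 6.79 CPM with Myf5 and Myod1 at 0, and the 7 adipocyte markers to 1.60 and 0 CPM with Adipoq and Plin1 at 0. Macrophage markers summed to 65.0 and 85.8 CPM, endothelial markers to 15.7 and 9.88 CPM, mural markers to 145 and 169 CPM, glial markers to 37.8 and 36.4 CPM, and fibre markers to 89.3 and 56.8 CPM. Tenocyte markers were the highest of these lists at 458 and 521 CPM, of which the matrix gene Thbs4, which parenchymal FAPs also express, gave 216 and 388 CPM and the cartilage matrix gene Comp 211 and 104 CPM. Neutrophil markers stood at 63.4 CPM in vehicle and 115 CPM in LNP. By cell, 67 of 147 vehicle and 40 of 79 LNP cells held at least 5 UMIs of the tenocyte markers. For the mural markers these were 39 and 24 cells, and for each other list at most 16.

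Cas9 RNA was abundant in parenchymal FAPs of the LNP library and not detected in those of the vehicle library. The vehicle cells held 0 Cas9 UMIs among 3124372 nuclear-encoded UMIs. The exact interval reaches up to 1.18 CPM, and 3 counts would be 0.960 CPM. The LNP cells held 4101 Cas9 UMIs, or 2532 CPM (2455 to 2611). At least 1 Cas9 UMI was found in 75 of 79 cells (94.9%, 87.5 to 98.6), at least 4 in 81.0% and at least 100 in 11.4%. The median cell held 16 Cas9 UMIs, with quartiles of 4 and 52.5 and a maximum of 812. The amount per cell was uneven. The 8 cells with the most Cas9 held 59.2% of the UMIs, and without the highest cell the level was 2082 CPM.

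By median cell, parenchymal FAPs carried 1057 Cas9 CPM, Pi16/Dpp4 FAPs 528 CPM and Tnc/Adam12/Col8a1 FAPs 132 CPM. By summed UMIs the other FAPs were at 2204 and 1074 CPM. The summed ratio over Tnc/Adam12/Col8a1 FAPs was 2.36 (2.27 to 2.45), and it ran from 1.54 to 2.17 when cells were weighted equally, thinned, or freed of their highest cell. The summed ratio over Pi16/Dpp4 FAPs was 1.15 (1.11 to 1.19), but 0.81 with each cell weighted the same and 0.86 at 5000 UMIs per cell, so no order between these 2 kinds held across the ways of counting. At 5000 UMIs per cell, Cas9 was detected in 85.1% (75 to 92.3) of parenchymal FAPs, 74.8% (66.5 to 82.0) of Pi16/Dpp4 FAPs and 53.2% (45.4 to 60.9) of Tnc/Adam12/Col8a1 FAPs.

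Other gated barcodes of the LNP library had less Cas9. Tenocytes stood at 678 CPM, neutrophils at 685, macrophages at 503, T and NK cells at 113, satellite cells at 89.9 and glial cells at 21.6. A Cas9 UMI was found in 3 of 20 glial barcodes (15%) at a median depth of 8549 UMIs, beside 94.9% of parenchymal FAPs at 22274. A Cas9 UMI was also found in 69.2% of satellite cells at a depth of 25580, in 69.1% of macrophages at 15241 and in 86.1% of tenocytes at 21491, so 1 UMI alone does not separate these cells. Thinned to 5000 UMIs, the shares were 7.69% in glial cells, 23.1% in satellite cells, 56.4% in macrophages, 63.1% in tenocytes and 85.1% in parenchymal FAPs. Across depth, the 27 shallowest parenchymal FAPs held 2234 Cas9 CPM, the middle 26 held 2139 and the deepest 26 held 2923, and all 4 cells without Cas9 were among the shallowest 27.

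**Figure D2:**
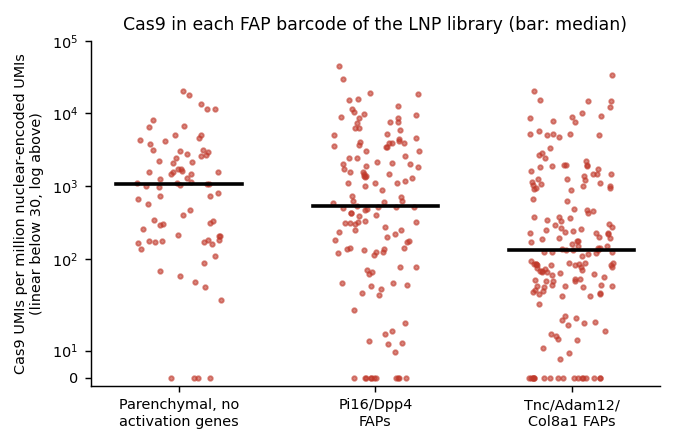
Cas9 level (CPM, over nuclear-encoded UMIs) in each FAP barcode of the LNP library (vertical axis linear below 30 and logarithmic above; points are cells, bars are medians). Medians are 1057 CPM in parenchymal FAPs without activation genes, 528 CPM in Pi16/Dpp4 FAPs and 132 CPM in Tnc/Adam12/Col8a1 FAPs, with wide overlap between the 3 kinds.

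Between treatments, parenchymal FAPs of the LNP library had higher levels of NF-kB-linked cytokine, chemokine and acute phase genes than those of the vehicle library. Of 10128 genes with at least 20 UMIs, 3967 were higher in LNP and 6161 lower. Among them, 628 (6.20%) were at least 1.5-fold higher in LNP and 1364 (13.5%) at least 1.5-fold lower, with a median log2 ratio of -0.10 over all genes. Scaling that median ratio to 1 gave 842 higher and 1053 lower, a pseudocount of 5 UMIs gave 614 lower and thinning to 5000 UMIs 772 lower. The NF-kB inflammation list had 33 of 34 measured genes higher, 19 of them at least 1.5-fold, and a median log2 ratio of 0.75. Chemokines had 15 of 18 higher (8 at least 1.5-fold) with a median of 0.52, and acute phase genes 15 of 17 (9 at least 1.5-fold) with a median of 0.72. Some lists share genes, such as Cxcl1 and Ccl2 in both the NF-kB and the chemokine list, so list medians are not independent of each other.

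**Figure D3:**
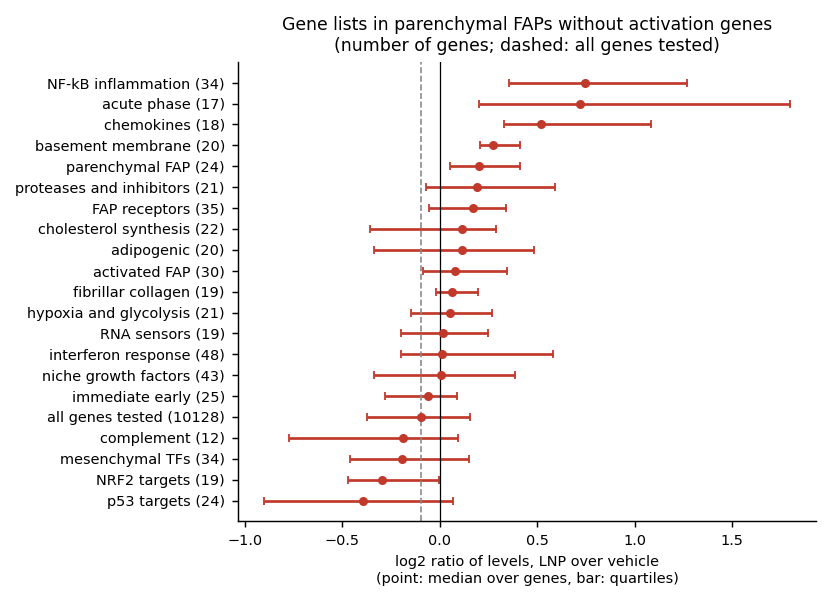
Log2 ratio of levels in LNP over vehicle parenchymal FAPs without activation genes for a selection of the gene lists. Points are medians over the genes measured, bars are quartiles, and brackets give the number of genes. Of the lists drawn, NF-kB inflammation (0.75), acute phase (0.72) and chemokine genes (0.52) have the highest medians. The p53 targets (-0.39) have the lowest, beside -0.10 over all genes (dashed line).

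Among secreted signals, interleukin 6 (Il6), the cytokine of acute inflammation and muscle regeneration, was at 433 CPM in vehicle (102 of 147 cells) and 1603 CPM in LNP (64 of 79 cells), a ratio of 3.70 (3.47 to 3.96). Cxcl10, the interferon-inducible ligand of Cxcr3 on lymphocytes, was at 91.2 CPM in 33 vehicle cells and 1305 CPM in 49 LNP cells, a ratio of 14.3 (12.6 to 16.2). The Cxcl10 ratio was 13.3 without the highest cell of each library, and detection at 5000 UMIs per cell was 14.8% (9.39 to 21.7) in vehicle and 47.3% (35.6 to 59.3) in LNP. The 8 LNP cells with the most Cxcl10 held 73.1% of its UMIs, so a small number of cells carried most of it.

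The neutrophil attractants Cxcl1 and Cxcl2 were at 2172 and 398 CPM in vehicle and at 3168 and 1361 CPM in LNP. The monocyte attractants Ccl2 and Ccl7 were at 1164 and 422 CPM in vehicle and at 1934 and 802 CPM in LNP. Ccl2 was detected in 63 of 147 vehicle cells and 59 of 79 LNP cells. The eosinophil attractant Ccl11 was at 333 and 716 CPM, whereas the T cell attractant Cxcl9 was level at 234 and 235 CPM. Of the same lists, some genes rested on few cells. Csf3 had 1 UMI in vehicle and 89 UMIs in 3 LNP cells, Ccl5 had UMIs in 2 and 6 cells, Csf2 in 2 and 0 cells, and Cxcl3 in 9 and 8.

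Acute phase genes gave some of the highest ratios. Serum amyloid A3 (Saa3), which stromal and epithelial cells make in inflammation, had 122 UMIs in 6 of 147 vehicle cells and 1230 UMIs in 23 of 79 LNP cells. Its levels were 39.0 and 759 CPM, a ratio of 19.5 (16.1 to 23.6), or 29.9 without the highest cell of each library. Saa1 was at 8.64 and 106 CPM, a ratio of 12.2 (8.11 to 19.1). In an alternative, cells with very many UMIs or with markers of other types, tenocyte, fibre and adipocyte markers aside, were left out. The log2 ratios then went from 4.28 to 3.57 for Saa3 and from 3.59 to 2.63 for Saa1. Pentraxin 3 (Ptx3), a soluble pattern recognition protein, was at 890.1 and 3090.5 CPM (3.47-fold), and Tnfaip6, a hyaluronan-binding protein, at 1052 and 1855 CPM (1.76-fold).

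Other genes of the NF-kB list covered the pathway's feedback and surface arms. Tnfaip2 was at 220 and 932 CPM (4.24-fold, 3.87 to 4.65), in 110 of 147 and 72 of 79 cells. Tnfaip3, which shuts the pathway off, was at 156 and 448 CPM (2.88-fold), while the inhibitor Nfkbia was at 1035 and 1192 CPM (1.15-fold). The adhesion ligand Icam1 was at 213 and 551 CPM (2.58-fold). Outside the list, the small GTPase Rnd1 was at 30.7 and 309 CPM (10.0-fold, 8.06 to 12.6), the hyaluronan synthase Has1 at 492 and 1139 CPM (2.31-fold) and the metalloproteinase inhibitor Timp1 at 529 and 939 CPM (1.78-fold). The metal-binding Mt1 and Mt2 were at 1.88 and 1.76 times their vehicle levels.

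Interferon-response genes split, with 26 of 48 higher and 22 lower and a median log2 ratio of 0.01. In all, 12 were at least 1.5-fold higher and 4 at least 1.5-fold lower, beside 6.20% and 13.5% of all genes. Over all genes, 3967 of 10128 were higher and 6161 lower. Ifit1, which binds foreign RNA ends, was at 29.4 and 167 CPM (5.68-fold) in 21 and 20 cells, and the double-stranded RNA sensor Ifih1 was at 41.6 and 191 CPM (4.59-fold). The ubiquitin-like modifier Isg15 was at 68.2 and 193 CPM and the guanylate-binding Gbp5 at 22.4 and 70.4 CPM. By contrast the transcription factor Irf7 (51.2 and 19.8 CPM) and Ifit3 (23 and 21.6 CPM) were not higher. Of the RNA sensor list, Myd88 was at 83.9 and 136 CPM, and 2 of 19 measured genes were at least 1.5-fold higher.

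**Figure D4:**
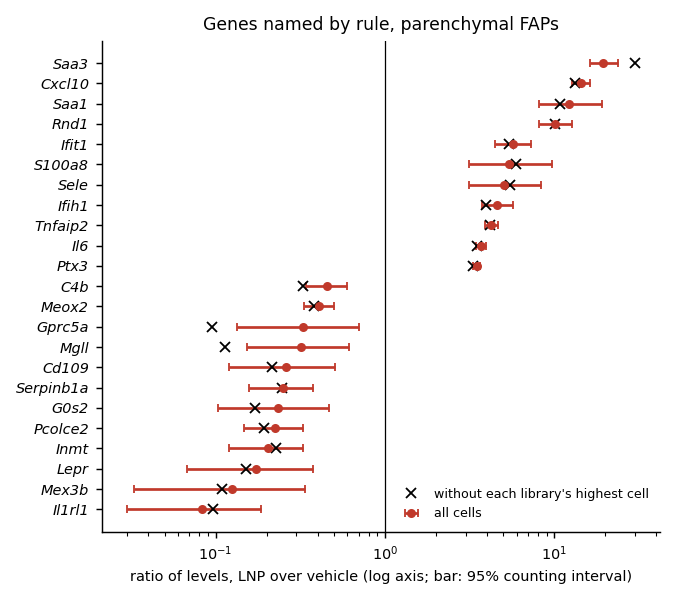
Ratio of levels in LNP over vehicle parenchymal FAPs (log axis) for genes chosen by rule, with exact 95% counting intervals; crosses give the ratio without the highest cell of each library for that gene, and Hba-a2, at 0 in vehicle, is not drawn. Saa3, Cxcl10, Saa1 and Rnd1 lie at 10.0 or above, and Il1rl1 and Mex3b have the lowest ratios, at 0.083 and 0.12.

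The promoters of Il6, Cxcl10, Saa3 and Ifit1 are printed because these 4 of the 11 matched genes named as higher hold 1 of the 2 motifs searched, and the letters show where. The sequences are RefSeq sequence of GRCm38.p6 (mm10), 5′ to 3′ on the gene's strand, up to 250 bases before the annotated start and ending at the more upstream of the RefSeq and GENCODE starts. Capitals mark the NF-kB motif, GGG and TTTCC with any 2 bases between them, or the motif of the interferon-stimulated response element (ISRE), GAAA and GAAA with any 2 bases between them. Each was searched on both strands, and no 2 marked motifs overlap. Looser forms of the NF-kB motif were not searched. The regions are chr5:30012864-30013113 (plus strand) for Il6, chr5:92348890-92349139 (minus strand) for Cxcl10, chr7:46715701-46715926 (minus strand) for Saa3 and chr19:34640639-34640870 (plus strand) for Ifit1.
Il6: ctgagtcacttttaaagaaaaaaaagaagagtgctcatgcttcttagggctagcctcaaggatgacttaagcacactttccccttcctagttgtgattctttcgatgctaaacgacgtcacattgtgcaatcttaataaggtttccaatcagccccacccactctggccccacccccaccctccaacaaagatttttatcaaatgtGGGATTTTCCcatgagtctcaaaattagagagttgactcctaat
Cxcl10: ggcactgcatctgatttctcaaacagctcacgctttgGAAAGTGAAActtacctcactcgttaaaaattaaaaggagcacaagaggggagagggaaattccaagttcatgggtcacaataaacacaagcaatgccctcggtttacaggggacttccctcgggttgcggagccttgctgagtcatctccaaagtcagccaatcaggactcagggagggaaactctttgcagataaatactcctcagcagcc
Saa3: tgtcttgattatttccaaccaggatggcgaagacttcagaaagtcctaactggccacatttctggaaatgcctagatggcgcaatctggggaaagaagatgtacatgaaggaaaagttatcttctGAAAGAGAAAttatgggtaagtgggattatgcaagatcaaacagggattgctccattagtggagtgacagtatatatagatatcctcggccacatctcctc
Ifit1: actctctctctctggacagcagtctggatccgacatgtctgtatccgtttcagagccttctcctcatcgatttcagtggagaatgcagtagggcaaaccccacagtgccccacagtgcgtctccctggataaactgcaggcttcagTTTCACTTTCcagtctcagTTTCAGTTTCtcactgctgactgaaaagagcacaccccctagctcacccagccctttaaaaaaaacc

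Distances are counted from the RefSeq start, which for Saa3 and Ifit1 lies downstream of the end of the printed sequence. In Il6 the NF-kB motif began 44 bases before the start. In Cxcl10 the ISRE motif began 213 bases before it, in Saa3 125 bases before it, and in Ifit1 there were 2, at 104 and 85 bases. Over 27025 genes with a promoter in the table, 1.40% held the NF-kB motif and 3.04% the ISRE motif. Of the NF-kB list, 8 of 31 matched promoters (25.8%) held the NF-kB motif and 0 the ISRE motif, and of the interferon list 16 of 37 (43.2%) held the ISRE motif. Of the 12 genes named as higher in LNP parenchymal FAPs, 11 were matched, 1 held the NF-kB motif and 3 the ISRE motif. Among the genes named as lower, 8 were matched, 1 held the NF-kB motif and 0 the ISRE motif. A match is a description of letters, not a measured site.

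Most genes named by the rule as lower in LNP were of low level. Meox2, a mesenchymal homeobox factor, was at 175 CPM in vehicle (106 of 147 cells) and 71.6 CPM in LNP (43 of 79 cells), a ratio of 0.41 (0.33 to 0.50). The mesenchymal transcription factor list had 24 of 34 genes lower and 8 at least 1.5-fold lower, with a median log2 ratio of -0.19, beside 6161 of 10128 lower and 13.5% at least 1.5-fold lower over all genes. In the LNP cells with the least Cas9 alone the list's median was 0.06. Prrx1 was at 309 and 153 CPM, the quiescence factor Hic1 at 43.8 and 16.7 CPM and the early B cell factor Ebf2 at 103 and 53.7 CPM. Others of the list went the other way, such as Runx1 at 283 and 374 CPM.

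The p53 target list had 17 of 24 genes lower, 8 of them at least 1.5-fold, with a median log2 ratio of -0.39. Over all genes 6161 of 10128 were lower and 13.5% at least 1.5-fold lower. Phlda3 was at 84.8 and 30.9 CPM and the cyclin Ccng1 at 40.0 and 17.3 CPM, whereas the cell cycle inhibitor Cdkn1a was nearly level at 158 and 148 CPM. Mdm2, the p53 ubiquitin ligase, was at 123 and 55.6 CPM, but 251 of its 383 vehicle UMIs lay in 1 cell, and without the highest cell of each library its ratio went from 0.45 to 1.18. Complement component C4b was at 88.7 and 40.1 CPM (0.45-fold) and Clu at 217 and 112 CPM, while C3 was at 427 and 455 CPM. The leptin receptor gene Lepr was at 25 and 4.32 CPM (0.17-fold), the procollagen enhancer Pcolce2 at 80.0 and 17.9 CPM (0.22-fold) and the methyltransferase Inmt at 57.3 and 11.7 CPM (0.20-fold). Thinned to 5000 UMIs per cell, the log2 ratio of Lepr went from -2.44 to -0.90, and with both limits of the rule per 10000 UMIs that of Pcolce2 went from -2.14 to -1.12. Il1rl1, the interleukin 33 receptor, was at 44.5 and 3.70 CPM, but 60 of its 139 vehicle UMIs lay in 1 cell, and its log2 ratio turned to 1.40 when both limits of the rule were set per 10000 UMIs.

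The fibrillar collagen and basement membrane lists differed little. Some single matrix genes outside these lists differed more, such as Thbs4 (1.80-fold) and Comp (0.49-fold). Fibrillar collagen genes had a median log2 ratio of 0.06, and none of 19 passed 1.5-fold in either direction. Basement membrane genes had 17 of 20 above their vehicle level, none of them past 1.5-fold, and a median of 0.27, where 3967 of 10128 of all genes lay above it. Among them, Col18a1 was at 162 and 241 CPM, the perlecan gene Hspg2 at 594 and 861 CPM and Col4a1 at 2389 and 2763 CPM, while Sparc was at 9284 and 8182 CPM. The parenchymal FAP list had 18 of 24 genes higher with a median of 0.20.

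Signals that FAPs send to the satellite cell niche went both ways, with 22 of 43 genes higher and a median log2 ratio of 0.01. At least 1.5-fold higher were 6 (Il6 among them) and at least 1.5-fold lower were 7. Over all genes, 3967 of 10128 were higher, 6.20% at least 1.5-fold higher and 13.5% at least 1.5-fold lower. Igf1, the insulin-like growth factor of muscle growth, was at 943 and 992 CPM, and the follistatin-like Fstl1 at 1877 and 2266 CPM. The neurotrophin Ntf3 was at 31.4 CPM in 47 vehicle cells and 10.5 CPM in 11 LNP cells (0.33-fold). Proteases and their inhibitors had 15 of 21 genes higher and 6 at least 1.5-fold higher, with the gelatinase Mmp2 at 818 and 1010 CPM and Timp2 at 809 and 676 CPM. Of FAP receptors, 24 of 35 were higher with a median of 0.17, and the stem cell antigen Ly6a was at 1034 and 829 CPM.

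Further stress programmes were set against the median of -0.10 over all genes. Over all genes, 3967 of 10128 were higher and 6161 lower, 6.20% at least 1.5-fold higher and 13.5% at least 1.5-fold lower. Immediate early genes had a median of -0.06, with Jun at 3134 and 3097 CPM, Egr1 at 2408 and 2343 CPM and Fos at 2330 and 2200.1 CPM, whereas Fosl1 was at 63.1 and 23.5 CPM. Heat shock genes had a median of -0.09, unfolded protein response genes -0.07 and the antioxidant NRF2 targets -0.30 with 14 of 19 lower. Of these NRF2 targets, 2 were at least 1.5-fold lower. The small heat shock protein Cryab was at 191 and 67.3 CPM (0.35-fold). Transforming growth factor beta targets had a median of -0.00 with 10 of 20 higher, and adipogenic genes 0.11, with the lipoprotein lipase gene Lpl at 1138 and 1296 CPM. Genes of lipoprotein uptake had a median of 0.02, and cholesterol synthesis genes 0.12, with 1 of 22 at least 1.5-fold higher, namely Insig1 at 36.2 and 75.9 CPM, and 5 at least 1.5-fold lower. Class I antigen presentation genes had a median of 0.01.

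The other FAPs of the same libraries are given side by side for the same lists. The NF-kB list had medians of 1.06 in Pi16/Dpp4 FAPs and 0.45 in Tnc/Adam12/Col8a1 FAPs, and chemokines 1.11 and 0.51, beside -0.05 and -0.01 over all genes. In Pi16/Dpp4 FAPs 5.57% of genes were at least 1.5-fold higher and 7.83% lower, and in Tnc/Adam12/Col8a1 FAPs 4.07% and 4.95%. Acute phase genes had medians of -0.04 and 0.25 there and 0.72 in parenchymal FAPs, and basement membrane genes -0.13 and -0.04 there. The Cxcl10 ratios were 7.29 and 3.20 in the others, and those of Il6 3.12 and 2.32. Those of Saa3 were 14.4 and 14.1, whereas those of Saa1 were 0.72 and 1.04. Those of Meox2 were 0.62 and 0.94. Whether these ratios differ between the kinds of FAP could not be tested with 1 library per treatment.

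The neutrophil protein gene S100a8 was also among the higher genes, with 19 UMIs in 17 of 147 vehicle cells and 53 UMIs in 33 of 79 LNP cells. No LNP cell held more than 4, and the ratio was 5.08 and 5.42 in the other FAPs. The neutrophil gate held 29 vehicle and 127 LNP barcodes. Its partner S100a9 had 29 UMIs in vehicle and 66 in LNP, Retnlg 3 and 6, Mmp9 2 and 5, Cxcr2 0 and 3 and Csf3r 1 and 0, while G0s2 had 74 and 9. The part of RNA from other cells in the S100a8 level was not tested.

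Within the LNP library, parenchymal FAPs were ranked by Cas9 UMIs per 10000 into a lower tercile of 27 cells (153 Cas9 CPM), a middle tercile of 26 (1051 CPM) and an upper tercile of 26 (6249 CPM). Median depths were 21568, 21512 and 24357 UMIs. These are ranges of 1 measure in 1 library, and the terciles are not treatments. Over the vehicle cells, the NF-kB list had a median log2 ratio of 0.19 in the lower, 0.57 in the middle and 1.14 in the upper tercile. At least 1.5-fold higher were 11 of 32, 16 of 32 and 25 of 34 of its genes, where 10.3%, 10.1% and 10.1% of all genes tested were. Chemokines had medians of 0.05, 0.38 and 1.20, and acute phase genes of 0.16, 0.56 and 0.65. Interferon genes had medians of -0.37, -0.02 and 0.43, beside -0.05, -0.07 and -0.15 over all genes.

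**Figure D5:**
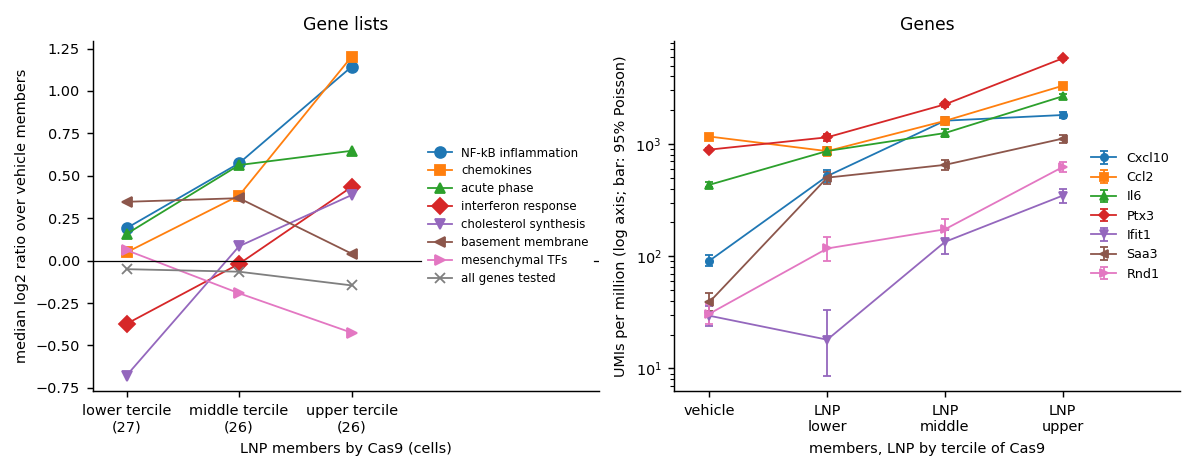
Parenchymal FAPs of the LNP library by tercile of Cas9 load (27, 26 and 26 cells). The left panel gives the median log2 ratio of selected gene lists over the vehicle cells. The right panel gives levels of 7 genes (CPM, log axis, bars are exact Poisson 95% intervals). The NF-kB list goes from 0.19 to 1.14 and the interferon list from -0.37 to 0.43 between the lower and upper tercile, while Saa3 and Cxcl10 are already above vehicle in the lower tercile.

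Single genes took different courses across the terciles. Some were near or below vehicle in the lower tercile. Ifit1 was at 29.4 CPM in vehicle and at 18.0, 134 and 346 CPM in the lower, middle and upper tercile, Isg15 at 68.2 in vehicle and 61.3, 213 and 307, and Ccl2 at 1164 in vehicle and 863, 1605 and 3299. Others were already higher where Cas9 was least. Saa3 was at 39.0 CPM in vehicle and at 501, 651 and 1116 CPM, Cxcl10 at 91.2 in vehicle and 517, 1611 and 1810.2, and Tnfaip2 at 220 in vehicle and 722, 822 and 1240 (1149 to 1336 in the upper tercile). Il6 was at 433 CPM in vehicle and at 865, 1250.4 and 2659 CPM. Meox2, lower in LNP as a whole, was at 68.5, 88.7 and 59.2 CPM in the terciles, all below the 175 CPM of vehicle.

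Directly between the terciles, 15.7% of 6041 genes were at least 1.5-fold higher and 16.5% at least 1.5-fold lower in the upper tercile, with a median log2 ratio of -0.01. Of the interferon list 28 of 38 were at least 1.5-fold higher (median 1.0), of the NF-kB list 22 of 33 (median 0.91), of chemokines 12 of 16 (median 1.48) and of acute phase genes 9 of 14 (median 1.05). Cholesterol synthesis genes had 8 of 13 at least 1.5-fold higher with a median of 0.95, but medians of -0.66 and -0.85 for the same contrast in Pi16/Dpp4 and Tnc/Adam12/Col8a1 FAPs. For the NF-kB list those FAPs gave 0.78 and 0.45, and for the interferon list 0.48 and 0.27. Fibrillar collagen genes had 14 of 18 lower, with a median of -0.42, beside 3221 of 6041 lower over all genes. Col1a1 was at 15905 CPM in the lower and 8597 CPM in the upper tercile.

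By the naming rule, the genes with the highest upper over lower ratios were Hba-a2, Ptx3 (1146 and 5790 CPM, 5.05-fold), Rnd1 (117 and 623 CPM, 5.32-fold), Prg4, Adm and Ccl2. Lubricin (Prg4), a surface glycoprotein of synovial and fascial fibroblasts, was at 425 CPM in the lower and 2216 CPM in the upper tercile. Since Prg4 was at 2130.3 CPM in vehicle, it was low in the lower tercile and not high in the upper. Adrenomedullin (Adm), a vasodilator peptide, was at 63.1 CPM in the lower and 362 CPM in the upper tercile. Among the lowest were Vwa1 (0.15-fold), Aldh1a1 (0.20), Bmp4 (0.28), Gadd45g (0.35) and Thbs4 (0.40). Thbs4 was at 649 CPM in the lower and 258 CPM in the upper tercile, with 216 CPM in vehicle.

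The alpha-globin gene Hba-a2 was the gene with the highest ratio of LNP over vehicle. It had 0 UMIs in vehicle parenchymal FAPs and 160 UMIs in 39 of 79 LNP ones, 98.8 CPM (84.1 to 115). That level is 103 times the level of 3 counts in vehicle, and the exact lower bound of the ratio is 82.7. By tercile of Cas9 it was at 12.6, 39.4 and 239 CPM. All 39 cells with Hba-a2 held Cas9, the 4 cells without Cas9 held 0 Hba-a2 UMIs, and the 8 cells with the most Cas9 held 84 of the 160. The near-identical copy Hba-a1 had 6 UMIs in vehicle and 2 in LNP, Hbb-bs 4 and 1, and Hbb-bt 0 and 0. How reads that fit both copies were counted was not checked, which leaves the split between Hba-a1 and Hba-a2 uncertain. Over all kept barcodes Hba-a1 had 24 UMIs in vehicle and 30 in LNP, and Hba-a2 12 and 1175. Hba-a2 was at 82.1 and 34.1 CPM in the other LNP FAPs and at 48.1 CPM in all kept LNP barcodes, against 0.374 CPM in all kept vehicle barcodes, and the cause was not tested.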

How the data were processed

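Single-cell RNA of mouse skeletal muscle was captured in 4 libraries, 1 per group, with 10x Chromium 3' reagents of version 3.1 (labels' protocols). The authors deposited 1 matrix of raw UMI counts per library over 32286 features, of which 1 is the added feature Cas9. The deposited counts come from cellranger 5.0.1 per the file headers, while Cell Ranger 7.0.1 with mm10 stands in the submitters' processing notes. Strand use and intron counting are not given in the sources used here. The bulk libraries held 33801488 (vehicle) and 25921795 (LNP) UMIs over 1305 and 1317 barcodes, of which 101 and 165 were removed by the filters on genes and mitochondrial UMIs. Parenchymal FAPs held 3249892 and 1687197 of these UMIs. The kit libraries were used only to count FAPs and their Cas9 UMIs.

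Members and gene lists were chosen with earlier results of these data known. UMIs were summed per group of cells over nuclear-encoded UMIs, log2 ratios took a pseudocount of 0.5 UMI, and genes needed 20 UMIs in the 2 groups together. Pi16 and Dpp4 were read as raw UMIs. No doublet caller was run, so doublets remain. Instead, an alternative left out members above the 95th percentile of UMIs or with at least 5 UMIs of another cell type's markers. The types were macrophage, neutrophil, T and NK cell, endothelial, mural, glial and satellite cell, without 5 markers found in over 20% of vehicle members. Tenocyte, fibre and adipocyte markers were not part of this filter. No cluster was formed. Depth was matched by thinning cells to 5000 UMIs, which left out 5 shallower members per library.

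Genes were named by rule. From LNP against vehicle came the 12 highest and 12 lowest by interval bound without each library's highest cell (at least 50 UMIs, 20 cells), and from each other kind of FAP 8 each way. From the terciles of Cas9 came 6 each way, and from each list the 3 most abundant and the extremes. A few genes that the rule or lists hold are not reported here. Genes named beyond these are list members chosen after their values were seen. The script was tested on simulated data. Promoters were matched by symbol to RefSeq, and 32158 of 32286 features matched GENCODE M21. Python 3.11.15, numpy 2.4.6, scipy 1.17.1, pandas 2.3.3 and matplotlib 3.10.9 were used.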

Additional observations from a re-analysis of the deposited data

Results flagged for a closer look

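Data outside the comparisons held 1 signal. The LNP library of the satellite cell isolation kit had 4 FAP barcodes, none of them parenchymal FAPs by the rule, and these held 30 Cas9 UMIs in 2 of the 4 barcodes. The vehicle kit library had 0 FAP barcodes, so no control value exists for them.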

How the results depend on the processing

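No library was left out, since each treatment has 1. No paired analysis was possible because each group has 1 library and no replicate numbers. Depth limits genes under 20 UMIs and the 79 LNP cells.

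Setting both limits per 10000 UMIs gave a vehicle share of 30%, Cas9 ratios of 0.88 over Pi16/Dpp4 FAPs and 2.04 over Tnc/Adam12/Col8a1 FAPs, and 1.40 for Il1rl1 (log2). Thinning to 5000 UMIs gave shares of 15.9% and 13.8% without a UMI of the 5 limit genes, Cas9 ratios of 0.86 and 1.68, 772 lower genes and 0.047 for Gprc5a (log2). Thinned list medians over Pi16/Dpp4 FAPs were -0.27 (vehicle) and -0.13 (LNP) for cell cycle and -0.13 (LNP) for p53 targets, and over Tnc/Adam12/Col8a1 FAPs -0.95 (LNP) for cell cycle. Equal weights gave Cas9 2341 CPM, ratios of 0.81 and 1.54, and 0.24 for Cd109 (log2). Without the highest cell Cas9 was 2082 CPM, with ratios of 1.03 and 2.17. Leaving out 20 vehicle and 12 LNP doublet-like cells gave 2262 CPM, 1.03 and 2.11. A minimum of 100 UMIs gave 219 higher and 323 lower genes, since fewer genes were tested, and a pseudocount of 5 gave 614 lower. Scaling to a median ratio of 1 gave 842 higher and 1053 lower.

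The lowest tercile of Cas9 alone, chosen after seeing the data, gave 992 higher genes, list medians of 0.19 (NF-kB), -0.37 (interferon) and 0.062 (mesenchymal factors), and log2 ratios of -0.65 for Ifit1 and -0.11 for Ifih1. The contrast of Cas9 terciles, also repeated in other FAPs after seeing the data, gave interferon medians of 0.48 (Pi16/Dpp4) and 0.27 (Tnc/Adam12/Col8a1) and an NF-kB median of 0.45 (Tnc/Adam12/Col8a1). For the rest the cause was not tested.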
